A study of Mus musculus with 17 samples.

Results

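The BCL2 family decides at the mitochondrial outer membrane whether a cell lives or enters apoptosis. Here it was followed in 10 listed genes: the pro-survival members Bcl2, Bcl2l1 (BCL-XL) and Mcl1, the pore-forming effectors Bax and Bak1, and the BH3-only members Bid, Bcl2l11 (BIM), Bbc3 (PUMA), Pmaip1 (NOXA) and Bmf. A gene was taken where the annotation of the array listed a probe set under its symbol and no other. By this rule 9 of the 10 genes had 1 probe set each, among 19751 genes in all, and no filter on low values was used. Bax had no such probe set and was not analysed here.

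The 17 Affymetrix arrays measured total RNA of plasmacytoid dendritic cells from the bone marrow of C57BL/6 mice, enriched by negative selection on magnetic beads and then sorted for intermediate CD11c together with B220 and Siglec-H. The cultures were CpG-A + LIF, CpG-A, CpG-B + LIF, CpG-B and LIF, with 3 arrays each, and medium, with 2 arrays (replicates 1 and 3). LIF, a cytokine of the interleukin-6 family whose receptor activates STAT3, was used at 10 ng/ml for 20 to 24 h in total and, in cultures with both agents, was added 1 h before CpG. CpG-A and CpG-B are classes of DNA oligonucleotide that trigger the endosomal receptor TLR9, and both were used at 6 µg/ml for 19 to 23 h. The labels give neither the age of the mice nor whether replicates came from separate mice or pooled cells. The p-values therefore measure the spread between these arrays, which may be technical. In RNA from a culture, fewer cells of a type and less RNA per cell cannot be told apart.

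Pro-survival members bind and restrain the effectors, and the effectors release cytochrome c once they are freed or activated. BH3-only members are the sensors: each carries a short helix that fits the groove of the pro-survival members, and BIM and PUMA bind all of these while NOXA and BMF are more selective. Plasmacytoid dendritic cells are known to depend on BCL2 for their survival.

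Each deposited value is the digits of a linear intensity whose decimal mark is lost, so its log2 value may be off by any whole number of steps of 3.32, the log2 of 10. Levels cannot be recovered, and a difference is given as its nearest reading, between -1.66 and 1.66 on the log2 scale. A called difference (limma, adjusted p under 0.05 over all 19751 genes) was given a direction where its reading was at most 1.11 in size, that is 2.15-fold, because the next reading is then an opposite change of at least 4.64-fold. Beyond this limit the direction was left unnamed, and the next reading stands in brackets after "or". A true change over 3.16-fold would be misread, so a named direction holds only if the true change was smaller. Arrays give no counting depth, and their number limits the precision. The values of all members by array are in the plot of readings by group.

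**Figure D1:**
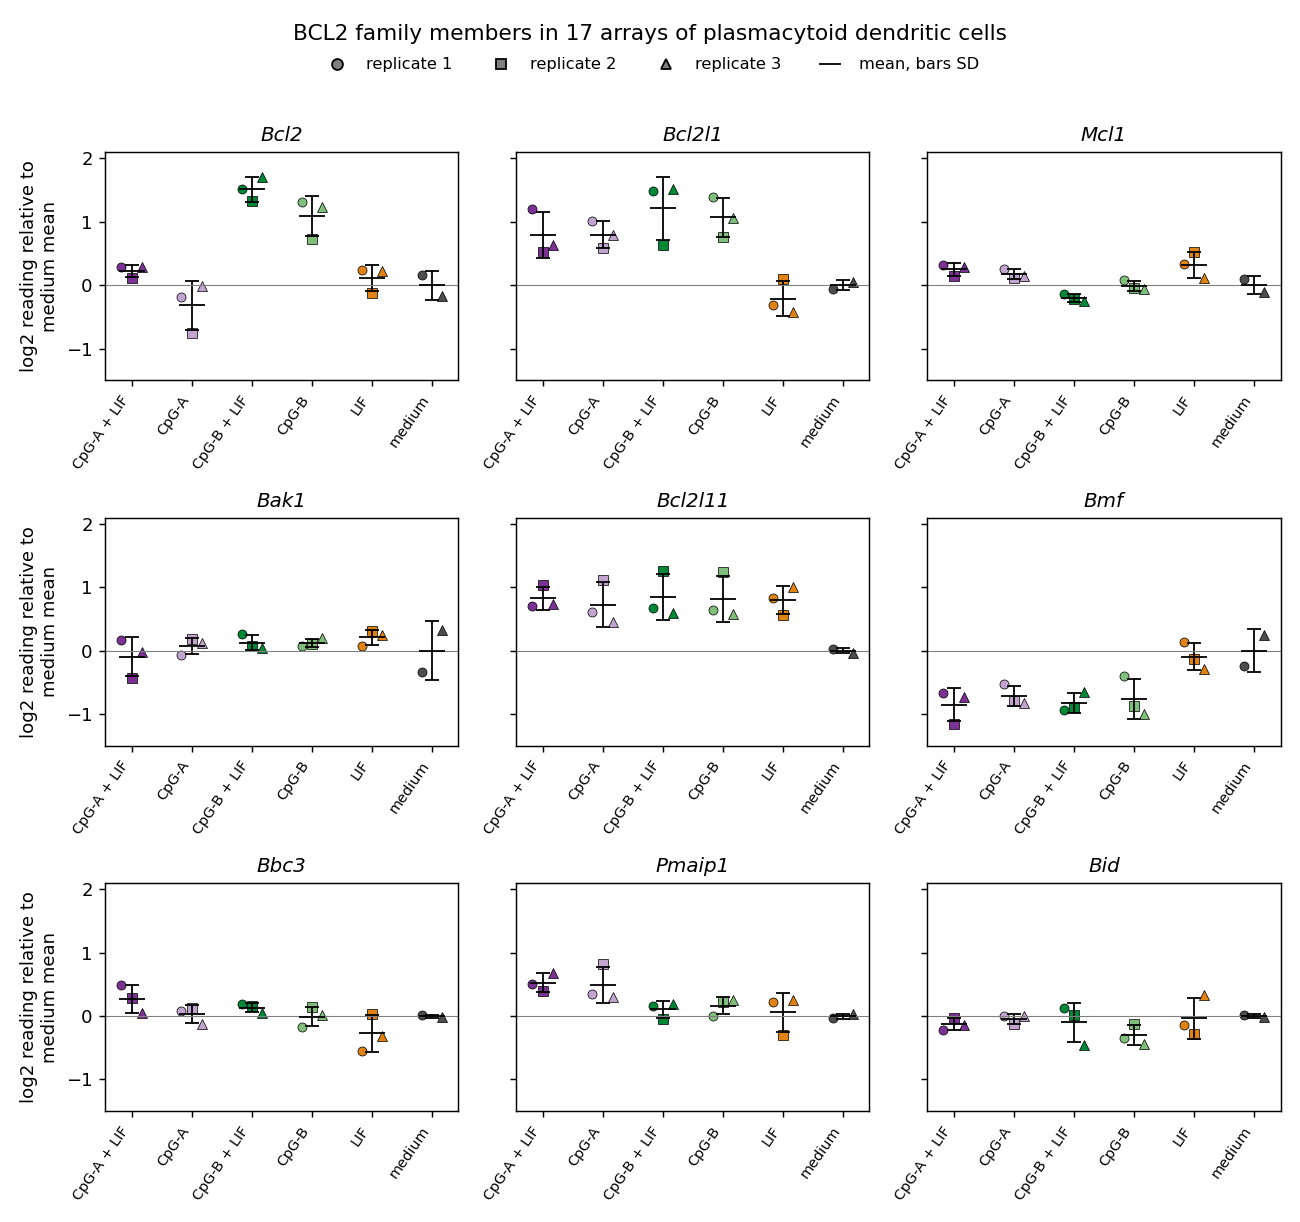
Log2 readings of the 9 measured BCL2 family genes relative to the mean of the medium arrays, by group on the x axis. Points are arrays, with the symbol giving the replicate number and each point placed next to its group mean. Horizontal bars are group means with SD (n = 3, medium n = 2). Bmf lies below the medium and LIF arrays in all 12 CpG arrays. The points of Bcl2l1 in the CpG arrays and of Bcl2 in the CpG-B arrays are drawn apart from those of medium and LIF, but against LIF the direction of both was open in the CpG-B + LIF arrays.

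The CpG comparisons asked which family members change when TLR9 is triggered, in cells without LIF and in cells given LIF. The pro-survival gene Bcl2l1 read higher and the BH3-only gene Bmf read lower with both CpG classes, and the BH3-only gene Bcl2l11 read higher with both against medium. The direction of Bcl2l1 could not be named in CpG-B + LIF vs LIF. Bcl2 was called with CpG-B and not with CpG-A. Readings of Bak1, Bid and Pmaip1 were not called in any of the 9 comparisons between groups. In CpG-A vs medium 3 of the 9 measured members were called, against 16.7% of all genes. That count fell to 0 without medium replicate 3 and to 1 without medium replicate 1 or any CpG-A array, and the number of all genes called was 3300, or 2128 without medium replicate 1. Of the 3 members, 2 read higher and 1 lower, where 4.91% and 7.15% of all genes were called in those directions. CpG-B vs medium had 4 of 9 called, against 19.2% of all genes, with 3 higher and 1 lower, where 6.94% and 7% of all genes were called higher and lower. Without either medium array 2 of these 4 calls were left, and the number of all genes called was 3795, or 2451 without medium replicate 3. In cells given LIF, CpG-A + LIF vs LIF had 3 of 9 called, against 17.4% of all genes, with 2 higher and 1 lower, where 6.23% and 7.29% of all genes were called higher and lower. CpG-B + LIF vs LIF had 4 of 9 called, against 25.4% of all genes, with 2 lower and 2 open in direction, where 9.02% and 5.94% of all genes were called lower and open. The median size of the members' readings was 0.32 in CpG-A vs medium and 0.30 in CpG-B vs medium, beside 0.20 and 0.21 over all genes. The comparisons with medium and those with LIF share no arrays, while comparisons against the same control group share its arrays. All 17 arrays enter the estimate of spread in every comparison, so p-values with and without LIF are not independent.

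**Figure D2:**
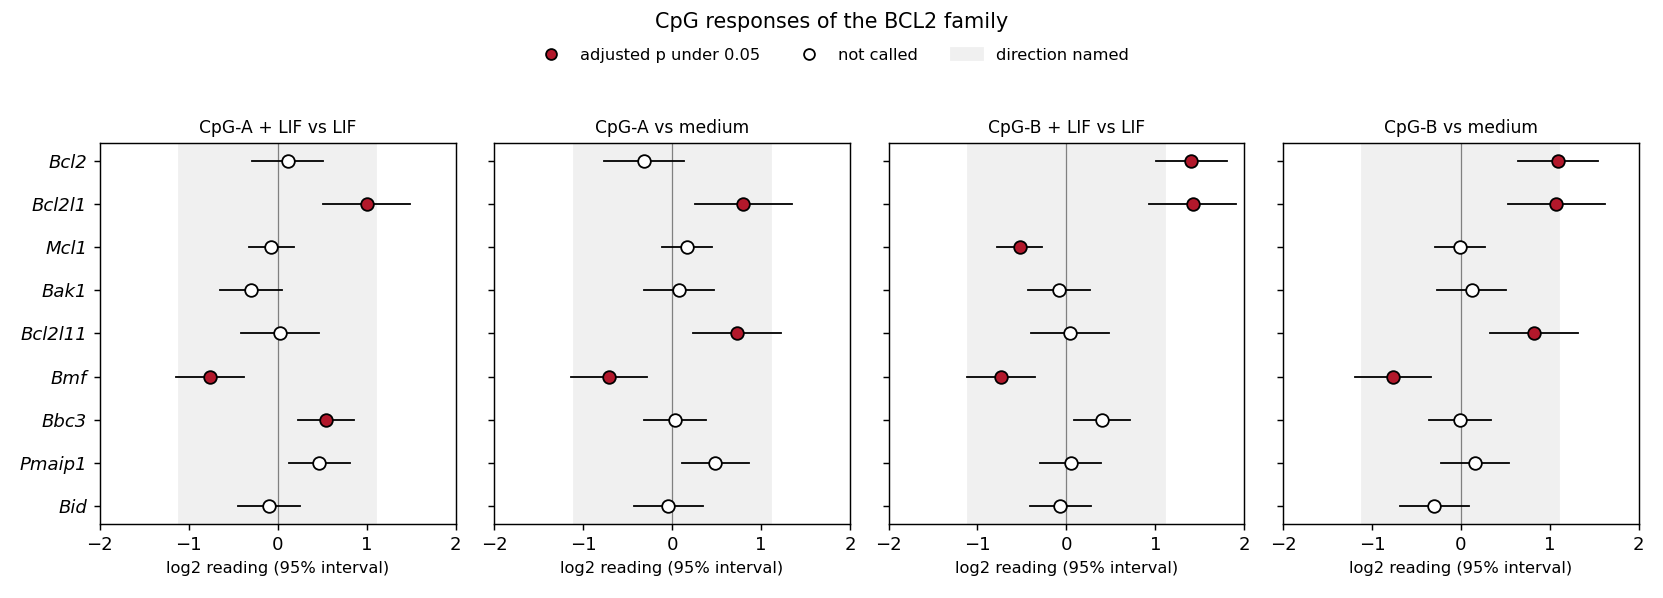
Nearest log2 readings (x axis) of the 9 measured members in the 4 CpG comparisons, with 95% intervals from limma that are not adjusted for the number of genes. Red points were called at an adjusted p under 0.05, and the grey band holds readings for which a direction was named. Bcl2l1 and Bmf are red in all 4 panels, with nearest readings on opposite sides of 0, and Bcl2 and Bcl2l1 lie outside the band in CpG-B + LIF vs LIF.

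Promoter sequences are given for 4 members whose readings were called, chosen because a promoter of each held a motif match. The sequences show the letters around a start site that match motifs of factors downstream of TLR9, LIF or growth factor withdrawal. Each runs from 250 bases before to 50 after a RefSeq start in GRCm38.p6. All 10 listed genes were looked up and 9 had entries, some with several starts. The motifs were the NF-kB consensus, the STAT motif TTCNNNGAA, the forkhead motif TGTTTAC and the interferon response core (TTTC, 2 bases of any kind, TTTC), on both strands, and capitals mark matches. A match is a description of letters, not a site of binding. Among 32851 promoters of this length, 4.51% held the NF-kB consensus, 8.3% the STAT motif, 3.65% the forkhead motif and 3.44% the interferon response core. These shares are per promoter, whereas a gene with several starts had several promoters searched. Bcl2l11 and Bbc3 each had a forkhead match, 227 and 167 bases before a start. Bcl2l1 had an NF-kB match 242 bases before the second of its 3 listed starts, and Bmf had one that begins at a start. Bbc3 had 2 overlapping NF-kB matches at another start, and the promoters of Bcl2, Mcl1, Bax, Bak1 and Bid held none of the 4 motifs.
Bcl2l11 promoter (chr2:128125788-128126087, plus strand): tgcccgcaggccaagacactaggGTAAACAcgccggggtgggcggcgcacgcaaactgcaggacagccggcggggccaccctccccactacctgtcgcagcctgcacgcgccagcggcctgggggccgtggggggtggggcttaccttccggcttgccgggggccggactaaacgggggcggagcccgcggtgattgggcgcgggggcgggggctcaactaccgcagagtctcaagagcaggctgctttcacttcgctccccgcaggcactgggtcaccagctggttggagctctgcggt
Bbc3 promoter (chr7:16310011-16310310, plus strand): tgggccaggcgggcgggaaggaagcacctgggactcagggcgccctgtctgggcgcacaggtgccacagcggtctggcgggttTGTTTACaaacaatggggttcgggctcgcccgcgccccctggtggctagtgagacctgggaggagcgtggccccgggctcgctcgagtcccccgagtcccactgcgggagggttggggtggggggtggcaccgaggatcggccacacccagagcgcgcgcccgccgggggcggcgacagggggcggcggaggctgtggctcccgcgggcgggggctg
Bcl2l1 promoter (chr2:152830668-152830967, minus strand): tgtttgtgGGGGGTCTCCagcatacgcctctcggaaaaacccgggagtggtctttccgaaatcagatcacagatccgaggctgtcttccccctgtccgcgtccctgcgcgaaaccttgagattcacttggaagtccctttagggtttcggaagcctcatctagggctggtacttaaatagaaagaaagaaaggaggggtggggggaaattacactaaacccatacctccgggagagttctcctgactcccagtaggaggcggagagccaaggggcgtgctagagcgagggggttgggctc
Bmf promoter (chr2:118544538-118544837, minus strand): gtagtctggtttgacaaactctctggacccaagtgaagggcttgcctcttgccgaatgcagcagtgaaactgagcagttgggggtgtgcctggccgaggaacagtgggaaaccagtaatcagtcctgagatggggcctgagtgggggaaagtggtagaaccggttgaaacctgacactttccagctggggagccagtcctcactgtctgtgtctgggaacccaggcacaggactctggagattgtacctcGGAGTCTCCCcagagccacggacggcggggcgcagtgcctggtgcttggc

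Bcl2, the founding pro-survival gene, was called with CpG-B and between the CpG classes. Relative to the medium mean it read 0.28, 0.12 and 0.28 in CpG-A + LIF, -0.19, -0.75 and -0.01 in CpG-A, 1.51, 1.32 and 1.71 in CpG-B + LIF, 1.31, 0.73 and 1.23 in CpG-B, 0.25, -0.13 and 0.22 in LIF, and 0.16 and -0.16 in medium, on the log2 scale. The third CpG-B + LIF value is placed next to its group mean, and its nearest reading taken alone is -1.61. Placed in this way, the 6 arrays with CpG-B, from 0.73 to 1.71, did not overlap the other 11 arrays, which lay between -0.75 and 0.28. In CpG-B vs medium the reading was 1.09 ± 0.21 (SE, n = 3 and 2, adjusted p = 0.00101), 2.13-fold higher, or -2.23. In cells given LIF it was 1.40 ± 0.19 (or -1.92, adjusted p = 2.13e-05), which leaves the direction unnamed. The CpG-A comparisons were not called, with -0.32 ± 0.21 in CpG-A vs medium (95% interval -0.76 to 0.13, adjusted p = 0.393) and 0.11 ± 0.19 in CpG-A + LIF vs LIF (-0.29 to 0.52, adjusted p = 0.783).

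The direct comparison of the oligonucleotides called Bcl2 in both backgrounds. CpG-A vs CpG-B read -1.41 ± 0.19 (or 1.91, adjusted p = 6.24e-05), and CpG-A + LIF vs CpG-B + LIF read -1.29 ± 0.19 (or 2.03, adjusted p = 0.000112), both beyond the limit on direction. The call in CpG-B vs medium was kept in all 24 alternative settings (adjusted p 3.12e-05 to 0.0304). Its reading sat at the limit, and passed it at 1.25 without medium replicate 1, at 1.27 without CpG-B replicate 2 and at 1.23 with the replicate number as a block. When the 17 values were unfolded at the widest gap between them, which was 0.85 wide, the reading stayed at 1.09. Unfolding assumes that all 17 values lie within a span of 3.32, so it does not test the direction. The plot of the possible readings of Bcl2 gives both solutions.

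**Figure D3:**
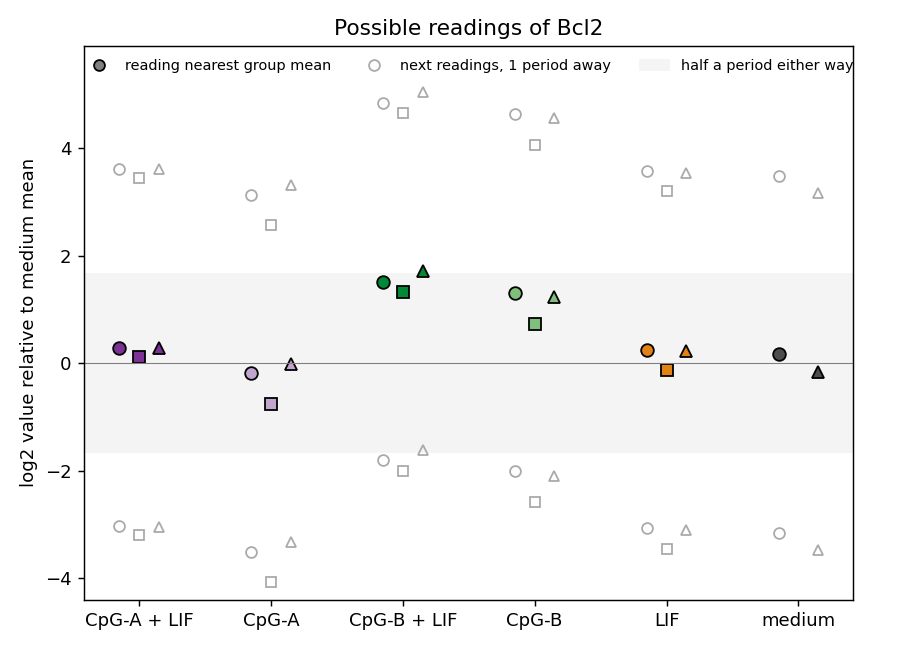
Possible log2 values of Bcl2 relative to the mean of the medium arrays, by group. Filled points are the readings nearest the mean of their group, open grey points the same arrays 3.32 higher or lower, and the grey band runs from -1.66 to 1.66. The arrays with CpG-B, with and without LIF, stand between 0.73 and 1.71, or between -2.59 and -1.61 in the next reading down.

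Bcl2l1 encodes BCL-XL, a pro-survival protein and a known target of NF-kB and STAT factors. Its printed promoter holds the NF-kB match, its other listed starts had none, and no listed start had a STAT match. The part of these factors in the readings of Bcl2l1 was not tested. Its arrays read 1.20, 0.53 and 0.64 in CpG-A + LIF, 1.02, 0.59 and 0.79 in CpG-A, 1.49, 0.63 and 1.52 in CpG-B + LIF, 1.39, 0.77 and 1.07 in CpG-B, -0.31, 0.10 and -0.42 in LIF, and -0.06 and 0.06 in medium. Placed next to their group means, the 12 CpG arrays, from 0.53 to 1.52, did not overlap the 5 arrays without CpG, from -0.42 to 0.10, while the direction of the CpG-B + LIF arrays against LIF was open. The gene read 0.80 ± 0.26 higher in CpG-A vs medium (1.74-fold, or -2.52, adjusted p = 0.0415) and 1.07 ± 0.26 higher in CpG-B vs medium (or -2.25, adjusted p = 0.0059). In cells given LIF the readings were 1.00 ± 0.23 with CpG-A (2.00-fold higher, or -2.32, adjusted p = 0.0046) and 1.42 ± 0.23 with CpG-B (or -1.90, adjusted p = 1.43e-04), the second open in direction.

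Bcl2l1 was among the tenth of genes with the largest spread within groups. Its call in CpG-A vs medium was lost without medium replicate 1 (0.74, adjusted p = 0.21), medium replicate 3 (0.86, 0.131), CpG-A replicate 1 (0.69, 0.133), CpG-A replicate 3 (0.81, 0.0804) or CpG-B replicate 3 (0.80, 0.0511), within a range over alternatives of 0.00943 to 0.21. In CpG-B vs medium the call was lost without medium replicate 1 (1.02, adjusted p = 0.0585, range 0.00157 to 0.0585), and the reading passed the limit on direction without CpG-B replicate 2 (1.23), without medium replicate 3 (1.13) and with the replicate block (1.18). In cells given LIF the calls were kept in all 23 alternatives that could be run. There the CpG-A reading passed the limit without LIF replicate 2 (1.16) or CpG-A + LIF replicate 2 (1.13), and the nearest CpG-B reading turned to -1.61 without CpG-B + LIF replicate 2.

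Mcl1, a short-lived pro-survival protein, had the smallest standard errors of the family. It read 0.32, 0.14 and 0.29 in CpG-A + LIF, 0.26, 0.11 and 0.14 in CpG-A, -0.14, -0.21 and -0.25 in CpG-B + LIF, 0.08, -0.05 and -0.07 in CpG-B, 0.33, 0.52 and 0.11 in LIF, and 0.10 and -0.10 in medium. The CpG-B + LIF arrays were the lowest 3 of the 17 readings. Mcl1 read lower in CpG-B + LIF vs LIF, at -0.52 ± 0.12 (1.44-fold lower, or 2.80, adjusted p = 0.00306), a call kept in all 24 alternatives. It read 0.45 ± 0.12 higher in CpG-A + LIF vs CpG-B + LIF (1.37-fold, or -2.87, adjusted p = 0.0141), a call that was lost without CpG-A + LIF replicate 1 (0.41, adjusted p = 0.0584) or CpG-A + LIF replicate 3 (0.43, 0.0503), within a range of 0.00981 to 0.0584. Without LIF, CpG-B vs medium gave -0.01 ± 0.13 (95% interval -0.30 to 0.27) and CpG-A vs medium 0.17 ± 0.13 (-0.11 to 0.45), and neither was called.

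Bak1, the effector that sits in the outer membrane before any death signal, was not called in any of the 9 comparisons. Its group means lay between -0.09 in CpG-A + LIF and 0.21 in LIF relative to medium, whose own arrays read -0.33 and 0.33. The reading largest in size among them was -0.30 ± 0.17, in CpG-A + LIF vs LIF (95% interval -0.65 to 0.04, adjusted p = 0.268).

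The BH3-only gene Bcl2l11 encodes BIM, the member best known for the death of lymphoid and myeloid cells after growth factor withdrawal. Its printed promoter holds the forkhead match. Bcl2l11 read 0.70, 1.04 and 0.74 in CpG-A + LIF, 0.61, 1.12 and 0.45 in CpG-A, 0.68, 1.26 and 0.59 in CpG-B + LIF, 0.64, 1.24 and 0.59 in CpG-B, and 0.84, 0.56 and 1.00 in LIF, against 0.03 and -0.03 in medium. All 15 arrays with CpG, LIF or both read between 0.45 and 1.26 above the medium mean, and the treated groups overlapped one another. The gene read 0.73 ± 0.23 higher in CpG-A vs medium (1.65-fold, or -2.60, adjusted p = 0.0407) and 0.82 ± 0.23 higher in CpG-B vs medium (1.77-fold, or -2.50, adjusted p = 0.0179). In LIF vs medium it read 0.80 ± 0.23, with an unadjusted p of 0.00316 from limma and an adjusted p of 0.16, so it was not called.

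Adding CpG to cells given LIF left Bcl2l11 at 0.02 ± 0.21 in CpG-A + LIF vs LIF (95% interval -0.42 to 0.47) and 0.04 ± 0.21 in CpG-B + LIF vs LIF (-0.40 to 0.48). The calls against medium rest on the 2 medium arrays. The call in CpG-A vs medium was lost without medium replicate 1 (0.76, adjusted p = 0.145), medium replicate 3 (0.69, 0.185), CpG-A replicate 1 (0.79, 0.0567) or CpG-A replicate 2 (0.53, 0.171), within a range of 0.0183 to 0.185. That in CpG-B vs medium was lost without medium replicate 1 (0.85, adjusted p = 0.0826), medium replicate 3 (0.79, 0.111) or CpG-B replicate 2 (0.61, 0.0862), within a range of 0.0065 to 0.111. In all 4 groups with CpG, replicate 2 was the highest array for Bcl2l11 and the lowest for Bcl2 and Bcl2l1, and medium has no replicate 2. With the replicate number as a block, Bcl2l11 read 0.60 in CpG-A vs medium (adjusted p = 0.0486) and 0.70 in CpG-B vs medium (adjusted p = 0.02).

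Bmf encodes a BH3-only protein first described as held at the actin cytoskeleton. It read -0.67, -1.15 and -0.73 in CpG-A + LIF, -0.53, -0.79 and -0.82 in CpG-A, -0.94, -0.88 and -0.65 in CpG-B + LIF, -0.40, -0.88 and -1.003 in CpG-B, 0.14, -0.13 and -0.29 in LIF, and -0.24 and 0.24 in medium. All 12 CpG arrays, at -0.40 and below, lay under the 5 arrays without CpG, the lowest of which read -0.29. Bmf read lower with each oligonucleotide and in each background, at -0.71 ± 0.20 in CpG-A vs medium (1.64-fold, or 2.61, adjusted p = 0.0199), -0.76 ± 0.20 in CpG-B vs medium (1.69-fold, or 2.56, adjusted p = 0.0119), -0.76 ± 0.18 in CpG-A + LIF vs LIF (or 2.56, adjusted p = 0.00586) and -0.73 ± 0.18 in CpG-B + LIF vs LIF (or 2.59, adjusted p = 0.00541). No difference between the oligonucleotides was called, with 0.05 ± 0.18 in CpG-A vs CpG-B (95% interval -0.34 to 0.43) and -0.03 ± 0.18 with LIF (-0.41 to 0.35).

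The Bmf calls against LIF were kept in all 24 alternatives. Against medium, that of CpG-A was lost without medium replicate 3 (-0.47, adjusted p = 0.286), CpG-A replicate 2 (-0.68, 0.0581) or CpG-A replicate 3 (-0.66, 0.0628), within a range of 0.00863 to 0.286. That of CpG-B was lost without medium replicate 3 (-0.52, adjusted p = 0.21) or CpG-B replicate 3 (-0.64, 0.0547), within a range of 0.00344 to 0.21.

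Bbc3 encodes PUMA, a BH3-only protein and known target of p53 and FOXO3. It read 0.48, 0.29 and 0.04 in CpG-A + LIF, 0.08, 0.13 and -0.12 in CpG-A, 0.19, 0.15 and 0.05 in CpG-B + LIF, -0.17, 0.14 and 0.01 in CpG-B, -0.54, 0.03 and -0.31 in LIF, and 0.02 and -0.02 in medium. LIF replicates 1 and 3 stood low, and LIF replicate 2 did not. Bbc3 was called in CpG-A + LIF vs LIF, at 0.55 ± 0.15 higher (1.46-fold, or -2.78, adjusted p = 0.0147). The call was lost without LIF replicate 1 (0.41, adjusted p = 0.0918), without CpG-A + LIF replicate 1 (0.44, 0.0859) and when only the arrays of these groups entered the fit (0.55, 0.0762), within a range of 0.00298 to 0.0918. CpG-B + LIF vs LIF read 0.40 ± 0.15 and was not called (adjusted p = 0.0558). It passed with the replicate number as a block (adjusted p = 0.0445), without the tenth of genes with the largest spread (0.0439), without LIF replicate 2 (0.56, 0.0106) and without CpG-A + LIF replicate 3 (0.40, 0.0481), within a range of 0.0106 to 0.267. Against medium, Bbc3 read 0.03 ± 0.17 with CpG-A and -0.01 ± 0.17 with CpG-B.

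Pmaip1 encodes NOXA, a BH3-only protein that mainly binds MCL1 and is known to be induced by interferon. It read 0.50, 0.40 and 0.69 in CpG-A + LIF, 0.34, 0.82 and 0.30 in CpG-A, 0.17, -0.04 and 0.20 in CpG-B + LIF, 0.01, 0.22 and 0.25 in CpG-B, 0.22, -0.29 and 0.25 in LIF, and -0.03 and 0.03 in medium. The 6 arrays with CpG-A, from 0.30 to 0.82, did not overlap those of the other groups. None of its comparisons was called: CpG-A vs medium gave 0.49 ± 0.18 (adjusted p = 0.0784), CpG-A + LIF vs LIF 0.47 ± 0.16 (adjusted p = 0.0546) and CpG-A + LIF vs CpG-B + LIF 0.42 ± 0.16 (adjusted p = 0.0882). CpG-A vs medium passed the threshold without LIF replicate 2 (0.49, adjusted p = 0.0424, range 0.0424 to 0.292), and CpG-A + LIF vs CpG-B + LIF likewise (0.42, 0.0497, range 0.0497 to 0.261). CpG-A + LIF vs LIF passed without LIF replicate 1 (0.55, 0.0492), LIF replicate 3 (0.56, 0.0433) or CpG-A replicate 2 (0.47, 0.0327), and without the tenth of genes with the largest spread (0.0367), within a range of 0.0327 to 0.278.

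Bid links death receptors to the mitochondrion once caspase-8 has cut it. Its group means ran from -0.30 in CpG-B to -0.03 in LIF, and its arrays from -0.46 to 0.33. The 3 CpG-B arrays read -0.34, -0.12 and -0.44, against 0.02 and -0.02 in medium, and did not overlap them. With -0.30 ± 0.18 in CpG-B vs medium (95% interval -0.69 to 0.09, adjusted p = 0.314), Bid was not called there or in the other comparisons.

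The comparison of CpG-A with CpG-B asked where the oligonucleotide classes part. In CpG-A vs CpG-B 1 of 9 members was called, Bcl2 with an open direction, against 13% of all genes called and 2.4% called and open. With LIF present 2 of 9 were called, against 16.9% of all genes. These were Bcl2, open in direction as were 3.27% of all genes, and Mcl1, higher with CpG-A as were 5.63% of all genes. For markers of plasmacytoid dendritic cells, 8 of 9 measured were called in CpG-A vs CpG-B and 8 of 9 with LIF. Of B cell markers 2 of 6 and 3 of 6 were called, and of monocyte or macrophage markers 2 of 7 in each. Conventional dendritic cell markers had 2 of 5 called in each, T or NK cell markers 1 of 5 and 0 of 5, and plasma cell markers 1 of 4 in each. The part of these markers in the readings of Bcl2 and Mcl1 was not tested. Bcl2l1 read -0.27 ± 0.23 in CpG-A vs CpG-B (95% interval -0.76 to 0.21) and -0.42 ± 0.23 with LIF (-0.91 to 0.07), neither called. With LIF it passed the threshold without CpG-B + LIF replicate 2 (-0.71, adjusted p = 0.0364, range 0.0364 to 0.571). Bcl2l11 read -0.10 ± 0.21 without LIF and -0.02 ± 0.21 with it.

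The LIF comparisons asked what LIF does to the family in resting and in stimulated cells. By limma, 0 of 9 members were called in LIF vs medium, against 0.81% of all genes, with 2 members at an unadjusted p under 0.05 (Bcl2l11 and Mcl1). The 160 genes behind that share were 34 without medium replicate 1, 16 without medium replicate 3, 88 without LIF replicate 1 and 17 with only the compared groups in the fit. CpG-A + LIF vs CpG-A called 0 of 9 against 0.00506% of all genes, and CpG-B + LIF vs CpG-B 0 of 9 against 0.0608%, with 1 member in each at an unadjusted p under 0.05. In this and later paragraphs, counts at an unadjusted p under 0.05 stand without the share of all genes at that threshold. They cannot be called many or few. With the replicate number as a block, which for CpG-B + LIF vs CpG-B follows arrays that deviate together, the count of members stayed at 0 while that of all genes was 19 in place of 12. Bcl2 was the member with the unadjusted p under 0.05 in both comparisons. It read 0.54 ± 0.19 in CpG-A + LIF vs CpG-A (95% interval 0.14 to 0.95, adjusted p = 0.591) and 0.42 ± 0.19 in CpG-B + LIF vs CpG-B (0.02 to 0.82, adjusted p = 0.629), with the arrays of the groups apart each time. With the replicate block, limma gave Bcl2 an adjusted p of 0.331 in CpG-B + LIF vs CpG-B, so it was not called there either. In LIF vs medium Bcl2 read 0.11 ± 0.21.

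**Figure D4:**
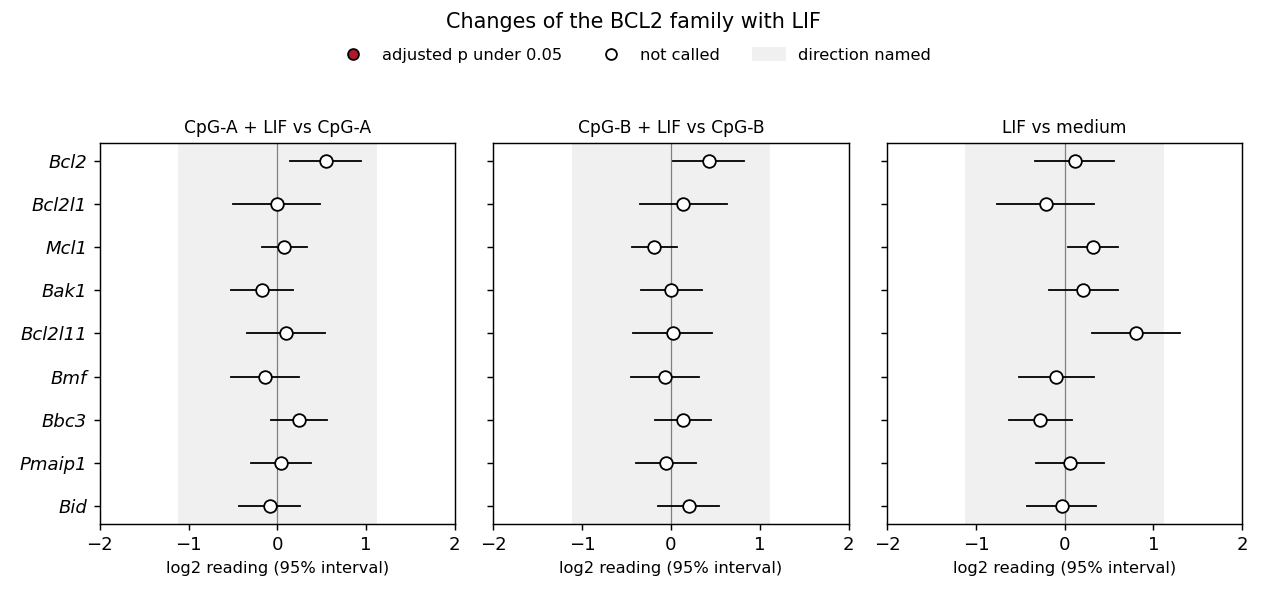
Nearest log2 readings (x axis) of the 9 measured members in the 3 LIF comparisons, with 95% intervals from limma that are not adjusted for the number of genes. No point is red, since 0 of 9 members were called in each comparison, and the intervals of Bcl2 with CpG and of Bcl2l11 and Mcl1 in medium do not reach 0.

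Whether LIF acts differently with CpG was tested as the difference between LIF effects, again by limma over all genes. With CpG-A, 0 of 9 members were called against 0.0101% of all genes, and with CpG-B 0 of 9 against 0.0962%, with 2 members in each at an unadjusted p under 0.05. Bcl2l11 read -0.70 ± 0.32 with CpG-A (adjusted p = 0.679) and -0.78 ± 0.32 with CpG-B (adjusted p = 0.414). Mcl1 read -0.51 ± 0.18 with CpG-B (adjusted p = 0.344), and Bbc3 0.51 ± 0.22 with CpG-A (adjusted p = 0.665). The LIF effects in medium and with CpG are therefore not shown to differ for any of the 9 members.

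Genes around the family were followed in 3 further lists. Of 13 measured genes in a list of other BCL2-related members, 3 were called in CpG-A vs medium (2 lower, 1 open) and 2 in CpG-B vs medium (both lower), where 16.7% and 19.2% of all genes were called. Bad, a BH3-only gene whose protein is inactivated by growth factor kinases, read -0.51 ± 0.16 with CpG-A (adjusted p = 0.0336) and -0.49 ± 0.16 with CpG-B (adjusted p = 0.0388). Bnip3l, a mitophagy receptor, read -1.41 ± 0.29 with CpG-A (or 1.91, adjusted p = 0.00161) and -1.01 ± 0.29 with CpG-B (or 2.31, adjusted p = 0.0167). Its relative Bnip3 read -0.95 ± 0.31 with CpG-A (adjusted p = 0.0405), and the BH3-only gene Bik read 0.62 ± 0.28 with CpG-B (adjusted p = 0.147).

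Of 18 measured genes in a list of caspases, apoptosome genes and their inhibitors, CpG-A vs medium called 11 (4 higher, 4 lower, 3 open), and CpG-B vs medium called 7 (4 higher, 1 lower, 2 open), again beside 16.7% and 19.2% of all genes. The median size of the list's readings was 0.71 with CpG-A and 0.45 with CpG-B, beside 0.20 and 0.21 over all genes. Birc3, an inhibitor of apoptosis and known NF-kB target, read 0.78 ± 0.14 higher with CpG-A (adjusted p = 7.33e-04) and 0.71 ± 0.14 higher with CpG-B (adjusted p = 0.00139). Cflar, which blocks caspase-8, read -1.60 ± 0.17 with CpG-A (or 1.72, adjusted p = 4.55e-06) and -1.23 ± 0.17 with CpG-B (or 2.09, adjusted p = 3.71e-05). Casp8, the initiator caspase of death receptors, read 1.23 ± 0.13 with CpG-A (or -2.09) and -1.09 ± 0.13 with CpG-B (or 2.23). The mitochondrial protease Htra2 read -0.75 ± 0.19 with CpG-A (or 2.58, adjusted p = 0.00803) and 1.09 ± 0.19 with CpG-B (or -2.23, adjusted p = 3.1e-04). For Casp8 and Htra2 the nearest readings among CpG-A, CpG-B and medium contradict one another, so their directions are unsettled, although the counts by direction include them. Cflar read 1.24 in CpG-A + LIF vs LIF (or -2.08) and 1.40 in CpG-B + LIF vs LIF (or -1.92). LIF readings of Cflar were 0.48 against medium, 0.01 with CpG-A and -0.22 with CpG-B. Its nearest readings with and without LIF therefore contradict one another, and its direction is unsettled too. Among genes outside the family, the readings among CpG-A, CpG-B and medium were checked for the named genes. Among the groups given LIF, nearest readings of Bik and of Casp8 contradict one another as well.

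In the list of death receptors and the p53 axis, 19 genes were measured, of which 5 were called with CpG-A against medium (2 higher, 2 lower, 1 open) and 8 with CpG-B (2 higher, 3 lower, 3 open), against the same 16.7% and 19.2% of all genes. Mdm2, the ubiquitin ligase that restrains p53, read 1.01 ± 0.15 higher with CpG-A (adjusted p = 1.12e-04) and 0.79 ± 0.15 higher with CpG-B (adjusted p = 7.95e-04). Foxo1, a forkhead factor, read -0.61 ± 0.14 with CpG-A (adjusted p = 0.00477) and -0.64 ± 0.14 with CpG-B (adjusted p = 0.00271). Ddit3, a stress factor, read -1.63 ± 0.16 with CpG-A (or 1.69) and 1.47 ± 0.16 with CpG-B (or -1.85), and Tnfsf10, the death ligand TRAIL, read 1.33 ± 0.28 with CpG-B (or -1.99). The nearest readings of Ddit3 and of Tnfsf10 among CpG-A, CpG-B and medium contradict one another too. Those of Tnfsf10 also do so among the groups given LIF. With LIF alone, 0 genes of each of the 3 lists were called by limma against medium, with 1, 3 and 2 genes at an unadjusted p under 0.05.

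For Bcl2, the member with the smallest adjusted p against medium, the genes most like it over the 17 arrays were Gar1, Mcm8 and Dph6. Likeness was the mean resultant length of the difference between log2 values taken as angles of the 3.32 period, with 1 for the same pattern. It was 0.90 for Gar1, 0.90 for Mcm8 and 0.89 for Dph6, against a median of 0.34 over all genes. These genes were chosen on the same arrays, so their readings are given without a test. Gar1, a component of box H/ACA ribonucleoproteins, read -0.47 in CpG-A vs medium and 0.71 in CpG-B vs medium. Mcm8, a helicase of DNA repair, read 0.01 and 0.95 in these comparisons, and Dph6, an enzyme of diphthamide synthesis, -0.39 and 1.19, the last beyond the limit on direction.

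The cell type could not be checked by the levels of its markers, because levels are lost. As differences, 3 of 9 measured plasmacytoid dendritic cell markers were called in CpG-A vs medium and 6 of 9 in CpG-B vs medium, where 16.7% and 19.2% of all genes were called. Their directions are not given, since nearest readings can contradict one another, as those of Siglech did, at -0.58 in CpG-A vs medium, 1.40 in CpG-B vs medium and 1.34 in CpG-A vs CpG-B. Of monocyte or macrophage markers 4 of 7 were called in each, of B cell markers 2 of 6 and 1 of 6, of conventional dendritic cell markers 2 of 5 and 3 of 5, of T or NK cell markers 1 of 5 and 1 of 5, and of plasma cell markers 2 of 4 and 1 of 4. In LIF vs medium 0 markers of any of these lists were called by limma, while 5 of 9 plasmacytoid dendritic cell, 0 of 6 B cell, 4 of 7 monocyte or macrophage, 2 of 5 conventional dendritic cell, 1 of 5 T or NK cell and 1 of 4 plasma cell markers had an unadjusted p under 0.05. Without the share of all genes at that unadjusted threshold, these last counts cannot be called many or few. The part of these markers in the readings of the BCL2 family was not tested.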

How the data were processed

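Total RNA of sorted plasmacytoid dendritic cells was measured on 17 arrays, grouped by the sample titles. The deposited table was made by the authors with RMA (background correction, normalization between arrays and probe summary), per the submitters' processing notes; no version is named in them. The deposited values are taken as a score: the digits of a linear intensity without its decimal mark. Of 419560 cells, 1 kept its mark. Of 24680 probe sets, 21354 carried 1 gene symbol, 1275 several and 2051 none listed. For genes with several probe sets, the one listing most accessions was kept (19751 genes). The platform annotation is GEO's and can be old.

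Values were taken as log2 modulo 3.32. Each array was placed by the shortest way to the circular mean of its group. Group means are the plain means of the values placed in this way. Differences were fitted with limma 3.58.1 in R 4.3.3, 1 coefficient per group over 17 arrays (11 residual degrees of freedom), folded to the nearest reading, with Benjamini-Hochberg adjustment over all genes. The functions were tested on simulated data. All 10 members, the 3 genes of each cell death list with the smallest adjusted p in CpG-A vs medium and in CpG-B vs medium, and the 3 genes most like the leading member were named. Promoters came from RefSeq. The members, lists, motifs and the limit on direction were chosen with earlier results of these data known. Figures were drawn with matplotlib 3.10.9.

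Alternatives were a replicate block, each array left out, all probe sets with 1 symbol, unfolding at the widest gap, re-centred arrays, a filter on spread, robust eBayes and fits on the compared groups alone. Other background corrections and a filter on dim probes were not run, because the table holds no probe intensities and no levels. Deviations of same-numbered arrays correlated above 0.1 in every pair for CpG-B + LIF vs CpG-B alone (0.126 to 0.243). The readings shown for it are without pairing, and counts with the replicate number as a block are given beside them. Arrays within a group differed by a median of 0.165 to 0.204 on the log2 scale, and no array was a copy of another.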

Additional observations from a re-analysis of the deposited data

How the results depend on the processing

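None of the readings with a named direction was reversed in any alternative. All alternatives used the same values without decimal marks, so they cannot test whether the nearest reading is the true one. Over 2365 readings of members under alternatives, 2331 kept their side of the threshold, 23 lost a call and 11 gained one. Leaving out 1 array, where a medium array leaves 1 array that is assumed to vary like the other groups, gave 0 to 4 members called in CpG-A vs medium, 2 to 4 in CpG-B vs medium, 2 to 4 in CpG-A + LIF vs LIF, 4 to 5 in CpG-B + LIF vs LIF, 1 to 1 in CpG-A vs CpG-B, 1 to 3 in CpG-A + LIF vs CpG-B + LIF and 0 to 0 in the LIF comparisons and their differences. The number of all genes called then ran from 2128 to 3415 in CpG-A vs medium, 2451 to 3927 in CpG-B vs medium, 16 to 168 in LIF vs medium, 0 to 4 in CpG-A + LIF vs CpG-A, 1 to 17 in CpG-B + LIF vs CpG-B, 2824 to 3439 in CpG-A + LIF vs LIF, 4092 to 5053 in CpG-B + LIF vs LIF, 1909 to 2644 in CpG-A vs CpG-B and 2438 to 3462 in CpG-A + LIF vs CpG-B + LIF. The count without medium replicate 1 was 2128 for CpG-A and 34 for LIF against medium, that without medium replicate 3 was 2451 for CpG-B and 16 for LIF, and that without LIF replicate 1 was 88 for LIF. Members called against medium fell to 0 with CpG-A without medium replicate 3, to 1 without medium replicate 1 or any CpG-A array, and to 2 with CpG-B without either medium array. LIF vs medium called 160 genes, and 17 with only the compared groups in the fit. CpG-A + LIF vs CpG-A called 1 gene, and 12 with the replicate block, 9 unfolded at the widest gap, 7 without the tenth of genes with the largest spread and 0 with only the compared groups. CpG-B + LIF vs CpG-B called 12 genes, and 19 with the replicate block, 35 without the tenth with the largest spread and 0 with only the compared groups; the cause was not tested. The block changed 1 member's call, that of Bbc3 in CpG-B + LIF vs LIF. In the other comparisons the correlation of same-numbered arrays was not above 0.1 in every pair, and the labels do not say what the numbers mark. Bcl2l1 has no value without the tenth of genes with the largest spread, since it is among them.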
